A study of Mus musculus with 12 samples.

Results

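NF-κB is the family of transcription factors through which cells of the immune system answer cytokines and microbial products. The 10 genes described here are the 5 DNA-binding subunits (Rela, Rel, Relb, Nfkb1 and Nfkb2), the cytoplasmic inhibitors Nfkbia, Nfkbib and Nfkbie, the nuclear IκB protein Nfkbiz, and Tnfaip3, which encodes the ubiquitin-editing inhibitor A20. They were taken by name from the 23420 genes of the deposited table, and all 10 were found. RNA had been sequenced from M-MDSCs (monocytic myeloid-derived suppressor cells, immature monocyte-like cells that suppress T cells), gated as CD11b+Ly6G-Ly6Chi in a sort of bone marrow, which the labels place in the tibia. The donors were 6 young mice (6 months) and 6 aged mice (24 months), all male C57BL/6JNIA, untreated as far as the labels say, with 1 library per mouse. The comparison asks how expression of the NF-κB genes in these cells differed between aged and young mice.

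In resting cells, dimers of the subunits are held in the cytoplasm by IκB proteins. A kinase complex built from Chuk, Ikbkb and Ikbkg marks the IκB proteins for destruction, and the freed dimers enter the nucleus and switch on their targets. Nfkbia and Tnfaip3 are themselves known targets that shut the response down again, whereas Nfkbiz acts in the nucleus on a subset of late targets. Nfkb1 and Nfkb2 encode precursors that are processed into the p50 and p52 subunits. In the myeloid lineage NF-κB drives cytokine production, survival and, downstream of the RANK receptor, osteoclast formation. Much of this regulation acts on protein stability and location, which RNA levels do not report.

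The libraries of the aged mice held 8737941 to 16300374 counted fragments and those of the young mice 4613239 to 9079237. Levels are given as CPM, a gene's counts scaled to the normalized library size, and a count of 3 stood for at most 0.349 CPM (aged) and 0.642 CPM (young). The alignment files of the young mice carry lower numbers than those of the aged mice throughout, so age and any order of preparation cannot be told apart. Cd38, the gene on which the study centres, lay at 22.6 to 39.1 CPM in the aged group and at 3.14 to 5.14 CPM in the young group. Against the labelled cell type, the 11 neutrophil markers together took 96590 to 116400 CPM in aged and 75390 to 103000 CPM in young mice, far above the 4318 to 5271 and 4728 to 5146 CPM of the 12 classical monocyte markers. All 11 neutrophil markers were detected, and 6 were called higher in aged mice, as were 3 of the 12 monocyte markers, with 1 lower (22.4% of all genes tested were called higher and 23.0% lower). Of these monocyte calls, those of Ly6c1, Ly6c2 and Itgam were lost with offsets for gene length. That of Ly6c1 was also lost with DESeq2 and limma-voom. That of Itgam was also lost when aged replicate 1, 2, 4, 5 or 6 or young replicate 6 was left out. The name M-MDSC is therefore used below as the label of the sort. Young replicates 5 and 6 held the lowest neutrophil sums of all mice (75390 and 80480 CPM). Aged replicate 1 stood apart by its 11 resident macrophage markers, which summed to 942.8 CPM against 75.1 to 302.6 CPM in the other aged mice and 64.3 to 85.5 CPM in young mice.

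**Figure D1:**
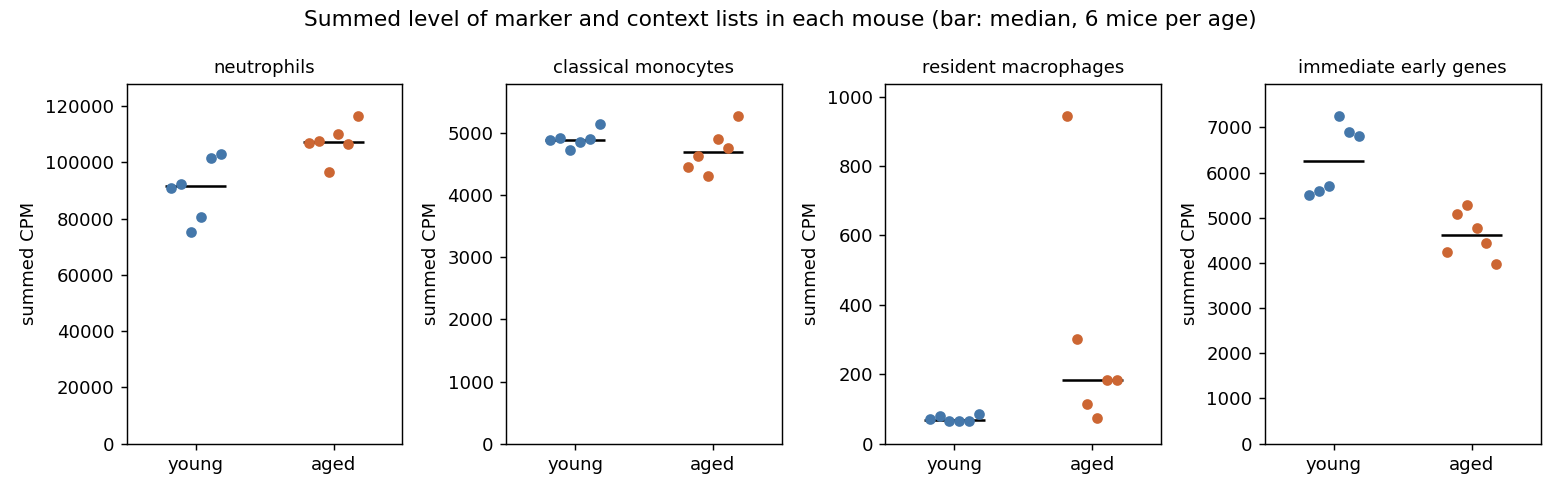
Summed CPM of the neutrophil, classical monocyte, resident macrophage and immediate early gene lists in each mouse, with the median of each age as a bar. The immediate early genes of the aged mice lie below those of all young mice, and 1 aged mouse (replicate 1) stands at 942.8 CPM of macrophage markers.

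Of the 10 NF-κB genes, 4 were called different between aged and young M-MDSCs. Nfkbiz, Rel and Nfkb1 were lower in aged mice, Nfkbib was higher, and the other 6 were not called. Calls were common in this comparison, with 45.4% of the 9742 genes tested called (22.4% higher and 23.0% lower), so that the 40% of NF-κB genes called is close to the background. The same 4 genes had values that did not overlap between the ages, as did 21.8% of all genes tested (9.68% higher and 12.1% lower in aged mice). The median of the log2 fold changes of aged over young (log2 FC) was -0.11 over the 10 genes and 0.006 over all genes tested, and the range was -0.68 to 0.38. No NF-κB gene differed by more than 1 on the log2 scale, a size that 4.73% of all genes exceeded. All 10 passed the filter on low counts.

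**Figure D2:**
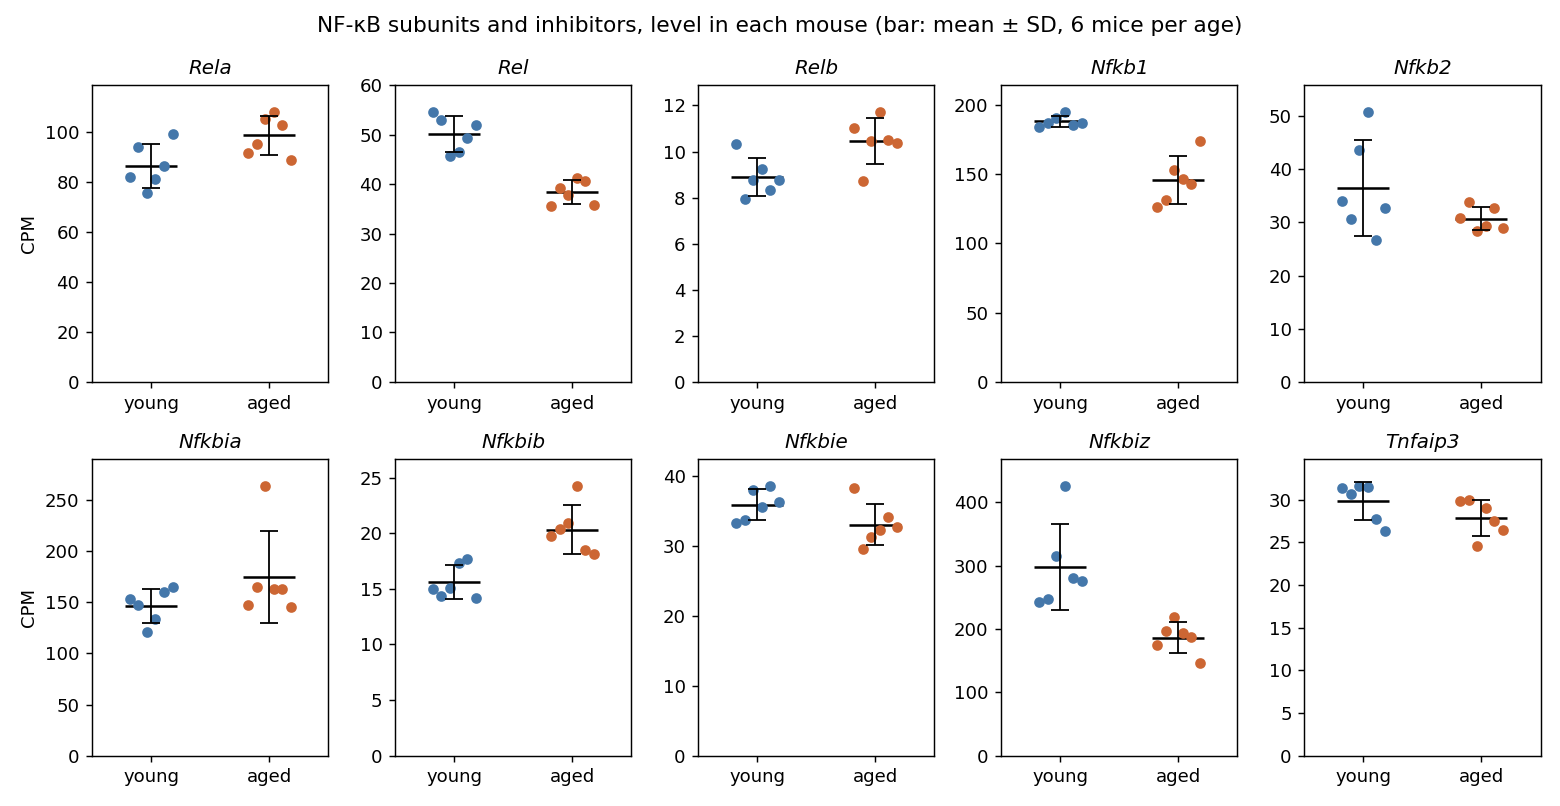
Level in CPM of each NF-κB gene in every mouse, with the mean ± SD of the 6 young and 6 aged mice, on axes that start at 0. Rel, Nfkb1 and Nfkbiz lie lower in all aged mice than in any young mouse, Nfkbib lies higher, and the other genes overlap.

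Nfkbiz (chromosome 16, 55811377 to 55838641 of mm10, minus strand, 14 exons), which encodes IκBζ, showed the largest difference. Its level was 146.1 CPM at the lowest, 190.4 at the median and 219.6 at the highest in the aged group, and 242.7, 278.1 and 426.4 CPM in the young group. Every aged mouse therefore lay below every young mouse, and the highest level belonged to young replicate 6. Nfkbiz was 1.6-fold lower in aged mice (log2 FC -0.68 ± 0.13 SE, with an adjusted p of 0.000912 in edgeR's quasi-likelihood test), with means of 186.5 ± 24.5 CPM (SD, n = 6) and 298.0 ± 68.0 (SD, n = 6). Without young replicates 5 and 6, an alternative chosen after seeing the data, the log2 FC was -0.51 (adjusted p = 0.000952). Beside this difference, the 28 immediate early genes, which are induced within minutes by growth factors, stress and handling, summed to 3985 to 5287 CPM in aged and 5511 to 7246 CPM in young mice. Of the 22 of them tested, 15 were lower in aged mice and none higher, with a median log2 FC of -0.44, where 23.0% of all genes tested were called lower. With a replicate block 4 of them were called. Zfp36, which destabilises cytokine mRNAs, had the smallest p-value (log2 FC -1.05, adjusted p = 5.20e-05), and Fosb, an AP-1 subunit, the largest fall (-1.98, adjusted p = 0.0043, not called with a replicate block). The part of these genes, and of the neutrophil markers, in the difference of Nfkbiz was not tested.

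Among the subunits, Rel and Nfkb1 were lower in aged mice and Rela was not. Rel (chromosome 11, 23741729 to 23770970, minus strand, 10 exons) encodes c-Rel, a subunit with a transactivation domain that is found mainly in blood cells. Aged mice had 35.6 CPM at the lowest, 38.6 at the median and 41.2 at the highest, and young mice 45.6, 50.6 and 54.6 CPM. The ages did not overlap, and the spread within each was small, with a coefficient of variation of 6.18% in aged and 7.26% in young mice. This was a 1.30-fold lower level in aged mice (log2 FC -0.38 ± 0.0707 SE, adjusted p = 0.00073).

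Nfkb1 (chromosome 3, 135584655 to 135691547, minus strand, 25 exons), the precursor of p50, ranged from 126.1 to 174.0 CPM in aged mice with a median of 144.4. In young mice it was tightly grouped between 184.1 and 194.7 CPM with a median of 186.7, a coefficient of variation of 2.10% against 11.7% in aged mice. Aged replicate 7 came closest to the young mice and the other aged mice were at or below 152.9 CPM. With age Nfkb1 fell by 0.37 on the log2 scale (SE 0.0724, adjusted p = 0.00108).

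Rela (chromosome 19, 5637490 to 5648130, plus strand, 11 exons) encodes p65, the usual transactivating partner of p50. Its level reached from 88.6 CPM through a median of 98.9 to 107.9 CPM with age, against 75.6 through 84.1 to 99.2 CPM in the young mice. All aged mice lay above the young median but the ages overlapped, and the log2 FC of 0.19 (SE 0.0775) missed the threshold (adjusted p = 0.0561). The call depended on single mice, since Rela was called higher without aged replicate 1, aged replicate 7, young replicate 2 or young replicate 10, with an adjusted p of 0.021 at the lowest. Without young replicates 5 and 6 the log2 FC was 0.10.

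The subunits of the alternative pathway, Relb and Nfkb2, were not called. Relb (chromosome 7, 19606222 to 19629438, minus strand, 11 exons), the partner of p52, was the lowest of the subunits, with 8.73 to 11.7 CPM in aged and 7.92 to 10.3 CPM in young mice. The overlap came from aged replicate 2, at 8.73 CPM, while the other aged mice lay above young replicate 1, the highest young mouse. Its log2 FC was 0.24 (95% interval 0.0086 to 0.47, adjusted p = 0.0709), and Relb was called higher when either of these 2 mice was left out (adjusted p = 0.0367 and 0.045). Nfkb2 (chromosome 19, 46304737 to 46312090, plus strand, 23 exons) had 28.4 to 33.8 CPM in aged mice, all within the 26.7 to 50.8 CPM of the young mice. Young replicates 5 and 6 were the 2 highest, at 43.7 and 50.8 CPM. The log2 FC of -0.26 (95% interval -0.55 to 0.04, adjusted p = 0.129) went to -0.03 without these young mice, and the gene was called lower without young replicate 9 (adjusted p = 0.0404).

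Of the 3 cytoplasmic inhibitors, Nfkbib was called higher in aged mice, and Nfkbia and Nfkbie were not called. Nfkbib (chromosome 7, 28758251 to 28766524, minus strand, 7 exons), which encodes IκBβ, had 18.1 CPM at the lowest, 20.04 at the median and 24.3 at the highest in aged mice. In young mice the corresponding levels were 14.2, 15.04 and 17.7 CPM, so the ages did not overlap, although the gap between them was less than 1 CPM. Nfkbib was 1.30-fold higher in aged mice (log2 FC 0.38 ± 0.0962 SE, adjusted p = 0.00562).

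Nfkbia (chromosome 12, 55489409 to 55492647, minus strand, 6 exons), which encodes IκBα, lay at 145.0 to 165.4 CPM in 5 aged mice and at 264.1 CPM in aged replicate 4. The young mice spanned 120.9 to 164.5 CPM around a median of 150.0, against an aged median of 163.0. The ages thus overlapped, with aged replicates 2 (165.4 CPM) and 4 above the highest young mouse. The log2 FC of 0.25 (95% interval -0.04 to 0.55, adjusted p = 0.131) became 0.10 without aged replicate 4. Nfkbie (chromosome 17, 45555716 to 45563168, plus strand, 6 exons), encoding IκBε, ranged from 29.6 to 38.2 CPM in aged and from 33.2 to 38.6 CPM in young mice. Aged replicate 1 was the aged mouse at 38.2 CPM and the other 5 lay below the young median of 35.9 CPM. The log2 FC was -0.12 (95% interval -0.29 to 0.05, adjusted p = 0.202).

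Tnfaip3 (chromosome 10, 19000910 to 19015410, minus strand, 9 exons) had the largest p-value of the 10 genes. The aged mice lay between 24.6 and 29.9 CPM, the young mice between 26.4 and 31.6 CPM. Most of both ranges was shared, although all 6 aged mice were below the young median of 31.0 CPM. The log2 FC was -0.10 (95% interval -0.28 to 0.08, adjusted p = 0.323), and its log2 FC was 0.07 with gene length offsets.

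**Figure D3:**
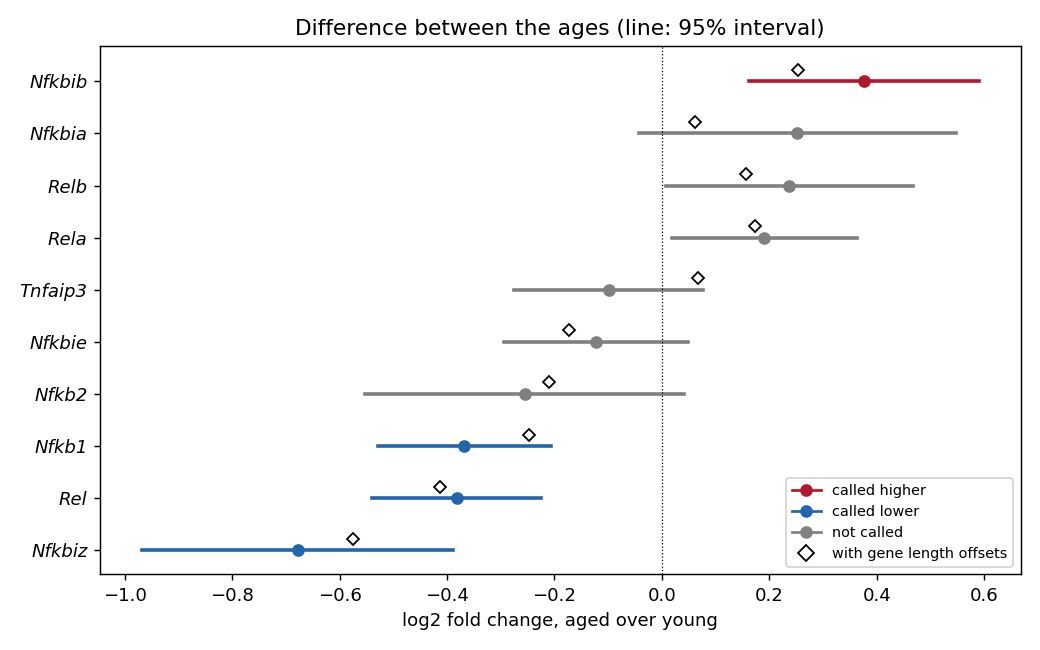
Log2 fold change of each NF-κB gene with its 95% interval, coloured by call, and the value after offsets for gene length as an open diamond. The called genes keep their sign with the offsets, and the sign of Tnfaip3, which was not called, turned.

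Log2 fold changes in this comparison were related to gene length over all genes tested (Spearman's rho -0.48 across genes, which are not independent), with longer genes lower in aged mice. With offsets fitted to gene length in each library, the called genes kept their direction and their call, at -0.57 for Nfkbiz, -0.41 for Rel, -0.25 for Nfkb1 and 0.25 for Nfkbib. With a replicate block added to the offsets, Rel (-0.38, adjusted p = 0.0559) and Nfkbib (0.27, adjusted p = 0.184) were no longer called. Nfkbia went from 0.25 to 0.06 with the offsets, and Relb from 0.24 to 0.16.

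Per kilobase of exon, which allows levels to be compared between genes, Nfkbia was the most abundant of the 10 transcripts. In aged mice the means in CPM per kilobase were 110.6 for Nfkbia, 48.1 for Nfkbiz, 36.4 for Rela and 35.4 for Nfkb1, then 14.9 for Rel, 13.6 for Nfkbie, 10.5 for Nfkbib, 9.31 for Nfkb2, 6.06 for Tnfaip3 and 4.76 for Relb. Each gene exceeded the next in all 6 aged mice except for Rela over Nfkb1, Rel over Nfkbie and Nfkbib over Nfkb2, where 5 of 6 mice followed the order. Young mice gave 92.8 for Nfkbia, 76.9 for Nfkbiz, 45.6 for Nfkb1, 31.9 for Rela, 19.4 for Rel, 14.8 for Nfkbie, 11.1 for Nfkb2, 8.02 for Nfkbib, 6.50 for Tnfaip3 and 4.04 for Relb. There Nfkbia exceeded Nfkbiz in only 4 of 6 mice, and Nfkbie over Nfkb2 and Nfkb2 over Nfkbib held in 5 of 6. Rela and Nfkb1, and Nfkb2 and Nfkbib, thus changed places between the ages. Among all genes tested, these levels per kilobase spanned from the 36.7th percentile (Relb) to the 94.4th (Nfkbia) in aged mice.

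Taken within each mouse, the ratio of Rela to Rel per kilobase was 2.45 ± 0.119 (SD, n = 6) in aged and 1.64 ± 0.13 (SD, n = 6) in young mice. It ranged from 2.31 to 2.65 in aged and from 1.43 to 1.82 in young mice, with no overlap. Rela made up 36.1% ± 2.11 of the summed subunit transcripts in aged mice and 28.4% ± 2.49 in young mice. The summed level of the 5 subunits was 92.6 to 105 CPM per kilobase in aged and 108 to 116 in young mice. The ratio of Nfkbia, the cytoplasmic IκB, to Nfkbiz, the nuclear one, was 2.29 ± 0.357 in aged and 1.26 ± 0.323 in young mice. Here too the ages were apart, with 2.06 as the lowest aged and 1.55 as the highest young value. CPM per kilobase does not remove the relation of fold changes to gene length. With length offsets, the log2 FC of Nfkbia went from 0.25 to 0.06 and that of Nfkbiz from -0.68 to -0.57. The 3 cytoplasmic inhibitors together, relative to the 5 subunits, gave 1.34 ± 0.254 in aged and 1.03 ± 0.0954 in young mice, and these values overlapped. The difference of 0.303 fell to 0.204 without aged replicate 4, the mouse with high Nfkbia. These ratios combine genes whose differences are given above, and no test was made of them.

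**Figure D4:**
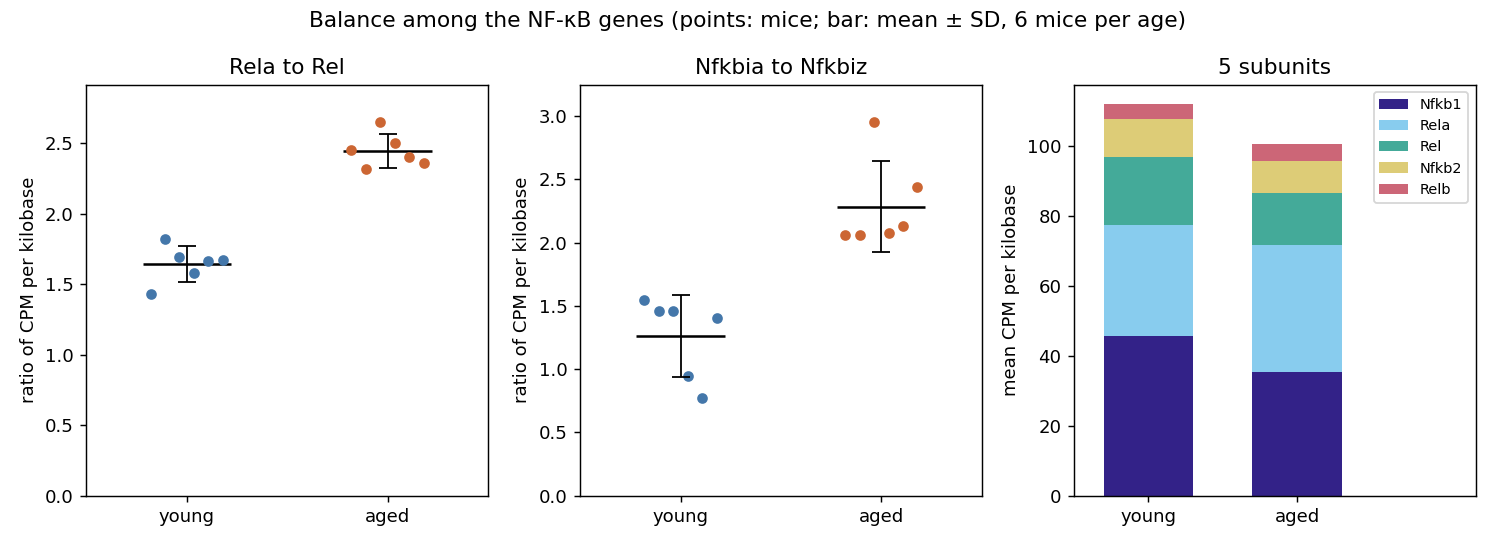
Ratio of Rela to Rel and of Nfkbia to Nfkbiz in CPM per kilobase in each mouse with the mean ± SD (6 mice per age), and the mean level of the 5 subunits stacked for each age. Both ratios are higher in every aged mouse than in any young mouse, and the aged stack of subunits is lower.

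Promoter sequences were examined because several of these genes are textbook targets of NF-κB. RefSeq promoter entries on GRCm38.p6, the assembly of mm10, were present for 7 of the 10 genes, and the entries for Relb, Nfkb1 and Nfkbiz were missing. The 250 bases before each start were searched on both strands for the κB consensus, a 10-letter motif. Among 10 promoters of these 7 genes, 7 held at least 1 match, against 7.25% of the 32851 promoters in the table. These promoters are not separate cases, since 3 of those with a match belong to Nfkb2, and its entries 2 and 3 overlap. By gene, 5 of the 7 held a match, and no background share per gene was computed. Matches lay in Rel, Nfkb2, Nfkbia, Nfkbie and Tnfaip3, but not in Rela or Nfkbib. A few are shown, to set the promoter of Rel, which was lower in aged mice, beside those of Nfkbia, Tnfaip3 and Nfkb2, which hold matches and were not called, and that of Nfkbib, which was higher and holds none. Each is written 5′ to 3′ on the strand of its gene and ends at the base before the start, with the κB matches in capitals.
Rel (chr11:23770970-23771219, minus strand): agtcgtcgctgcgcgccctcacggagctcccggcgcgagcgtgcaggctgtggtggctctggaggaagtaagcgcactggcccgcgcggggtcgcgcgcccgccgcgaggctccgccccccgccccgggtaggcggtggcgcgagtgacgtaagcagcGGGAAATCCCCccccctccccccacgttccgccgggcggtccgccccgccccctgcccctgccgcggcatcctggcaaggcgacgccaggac
Nfkbia (chr12:55492648-55492897, minus strand): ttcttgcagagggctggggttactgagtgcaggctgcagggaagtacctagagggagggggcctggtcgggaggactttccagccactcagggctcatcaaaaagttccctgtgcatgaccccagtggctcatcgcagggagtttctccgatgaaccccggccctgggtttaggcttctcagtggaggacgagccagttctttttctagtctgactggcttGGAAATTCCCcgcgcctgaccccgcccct
Tnfaip3 (chr10:19015411-19015660, minus strand): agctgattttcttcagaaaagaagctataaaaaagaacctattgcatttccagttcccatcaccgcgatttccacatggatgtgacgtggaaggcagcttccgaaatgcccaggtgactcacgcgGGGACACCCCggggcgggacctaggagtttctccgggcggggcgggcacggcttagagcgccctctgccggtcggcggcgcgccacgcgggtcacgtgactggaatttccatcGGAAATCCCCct
Nfkb2 (chr19:46304487-46304736, plus strand): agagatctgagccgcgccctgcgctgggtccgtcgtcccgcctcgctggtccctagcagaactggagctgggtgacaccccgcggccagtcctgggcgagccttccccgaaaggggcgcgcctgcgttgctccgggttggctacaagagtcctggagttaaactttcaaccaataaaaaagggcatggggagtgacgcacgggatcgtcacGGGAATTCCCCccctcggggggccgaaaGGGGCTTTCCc
Nfkbib (chr7:28766645-28766894, minus strand): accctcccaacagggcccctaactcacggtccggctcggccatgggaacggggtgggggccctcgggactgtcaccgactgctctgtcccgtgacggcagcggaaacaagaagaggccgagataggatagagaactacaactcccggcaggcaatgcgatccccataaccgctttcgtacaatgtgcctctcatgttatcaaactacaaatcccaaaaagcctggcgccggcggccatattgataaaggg

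In Rel the capitals cover overlapping matches on both strands that begin 92 and 91 bases before the start. The match in Nfkbia, read on the opposite strand as GGGAATTTCC, begins 29 bases before the start. Tnfaip3 had matches at 125 and 12 bases, and Nfkb2 at 39, 38 and 11 bases. Nfkb2 has 2 other promoter entries, with matches at 236 and 225 bases before their starts, and Tnfaip3 has 1 other, with no match. The genes without a match, Rela and Nfkbib, had positive log2 FCs, as did Nfkbia among the 5 genes with one. Rela and Nfkbia were not called. Signs also turned for Tnfaip3 with length offsets (0.07) and for Nfkbia with a replicate block and offsets (-0.04). A match of letters does not show binding, and its absence says only that the motif is not in this window.

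The genes around the subunits and inhibitors were then counted by list. Of 86 other pathway genes tested, 15 were higher and 25 lower in aged mice, and 46 were not called. The 46.5% called is close to the 45.4% of all genes tested, and the lists ranged from 31.8% (receptors and adaptors) to 57.1% (target genes). Among 22 receptors and adaptors, 3 were higher and 4 lower, with a median log2 FC of -0.05. Traf3, an adaptor that restrains the alternative pathway by keeping the kinase NIK low, fell the most and had the smallest p-value. It was at 63.9 ± 7.10 CPM in aged and 116.8 ± 17.4 CPM in young mice (log2 FC -0.87, SE 0.0999, adjusted p = 2.55e-05), and the values did not overlap. With gene length offsets its log2 FC was -0.52. Myd88, the adaptor of Toll-like and interleukin-1 receptors, had the largest rise (0.46, adjusted p = 0.00208). Tlr2, Tlr4 and the TNF receptor genes Tnfrsf1a and Tnfrsf1b, chosen after their values were seen, were not called, with log2 FCs from -0.21 to 0.17. Tnfrsf11a, which encodes RANK, had at most 34 counts in any mouse and was not tested.

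The list of pathway kinases also holds Ikbkg, Tab1, Tab2, Tab3 and Tank, which encode adaptor or regulatory proteins. Of its 15 genes tested, 6 (among them Tab2) were lower, 1 (Ikbkg) was higher and 8 were not called. The median was -0.18. Map3k14, which encodes NIK, fell the most and also had the smallest p-value, with 26.3 ± 3.67 CPM in aged and 39.8 ± 3.58 CPM in young mice (log2 FC -0.61, adjusted p = 0.000342). Within the IκB kinase complex, Ikbkg, the regulatory subunit, was the gene of the list called higher (0.29, adjusted p = 0.0101). It was no longer called with library totals in place of TMM factors (0.20, adjusted p = 0.0525). The catalytic subunits Ikbkb and Chuk were chosen after their values were seen. Ikbkb was lower (log2 FC -0.59, adjusted p = 0.00351), and Chuk was not called (0.10, adjusted p = 0.265). With gene length offsets the log2 FC of Ikbkg was 0.66, and without young replicates 5 and 6 that of Ikbkb was -0.33. The number of genes of this list called was 4 without aged replicate 2, young replicate 5 or young replicate 6.

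The list of ubiquitin enzymes and brakes gave 4 higher and 7 lower of 24 tested, with a median of -0.03. It mixes genes that restrain the pathway with genes that promote it, such as Rbck1 (higher) and Birc3 and Btrc (lower). Pdlim2, which promotes degradation of nuclear p65, had the largest rise and the smallest p-value, with 113.9 ± 16.6 CPM in aged and 76.3 ± 10.6 CPM in young mice (log2 FC 0.58, adjusted p = 0.000786). Nfkbid, which encodes another nuclear IκB protein, had the largest fall (-0.61, adjusted p = 0.00231), with 38.1 ± 6.90 CPM in aged and 58.0 ± 10.9 CPM in young mice and no overlap. Bcl3, which also encodes a nuclear IκB protein and was chosen after its values were seen, had a log2 FC of -0.04 (adjusted p = 0.849).

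Known target genes of NF-κB were split. Of 28 tested out of 47 listed, 7 were higher and 9 lower, with a median of -0.03, and 5 of the listed genes also stand in other pathway lists. Ptgs2, which encodes cyclooxygenase-2, had the largest fall, with 20.2 ± 9.07 CPM in aged and 61.0 ± 18.1 CPM in young mice (log2 FC -1.62, adjusted p = 0.000283). Cflar, an inhibitor of death receptor signalling, had the smallest p-value (-0.62, adjusted p = 0.000108, and -0.22 with gene length offsets). Vcam1, an adhesion molecule, had the largest rise (1.996, adjusted p = 0.00936), but its mean of 87.1 CPM in aged mice carried an SD of 107.4 CPM. Without aged replicate 1 its log2 FC was 1.02 (adjusted p = 0.0143), and without aged replicate 1 and young replicates 5 and 6 it was 0.97 and not called (adjusted p = 0.0521). The call was also lost with limma-voom (1.30, adjusted p = 0.0743). Vcam1 is also one of the resident macrophage markers, of which 8 of 8 tested were higher in aged mice, and the part of such cells in its rise was not tested. Fewer or more cells of a type and a changed RNA level per cell cannot be told apart in these bulk samples.

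Among cytokine and chemokine targets, Il6, Il23a, Cxcl1 and Csf3 had 0 counts in every mouse, below the level that 3 counts stand for. The following were chosen after their values were seen. Ccl3 (-1.15, adjusted p = 0.00654) and Csf1 (-0.50, adjusted p = 0.0497) were lower in aged mice, and Tnf and Il1b were expressed and not called. Ccl3 was low, with means of 2.49 CPM in aged and 5.27 CPM in young mice, and its values overlapped. Tnf was at 57.3 ± 7.02 CPM in aged and 54.0 ± 7.82 CPM in young mice (log2 FC 0.09, adjusted p = 0.498), and Il1b was at 175.0 ± 69.3 and 180.0 ± 34.1 CPM (-0.04, adjusted p = 0.90). Nlrp3, the inflammasome sensor, was lower in aged mice (-0.85, adjusted p = 0.000729). The 7 targets called higher, against 9 lower, were Vcam1, Cd83 (1.61), Icam1 (1.04), Cd86 (0.75), Marcks (0.59), Marcksl1 (0.38) and Bcl2l1 (0.29).

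**Figure D5:**
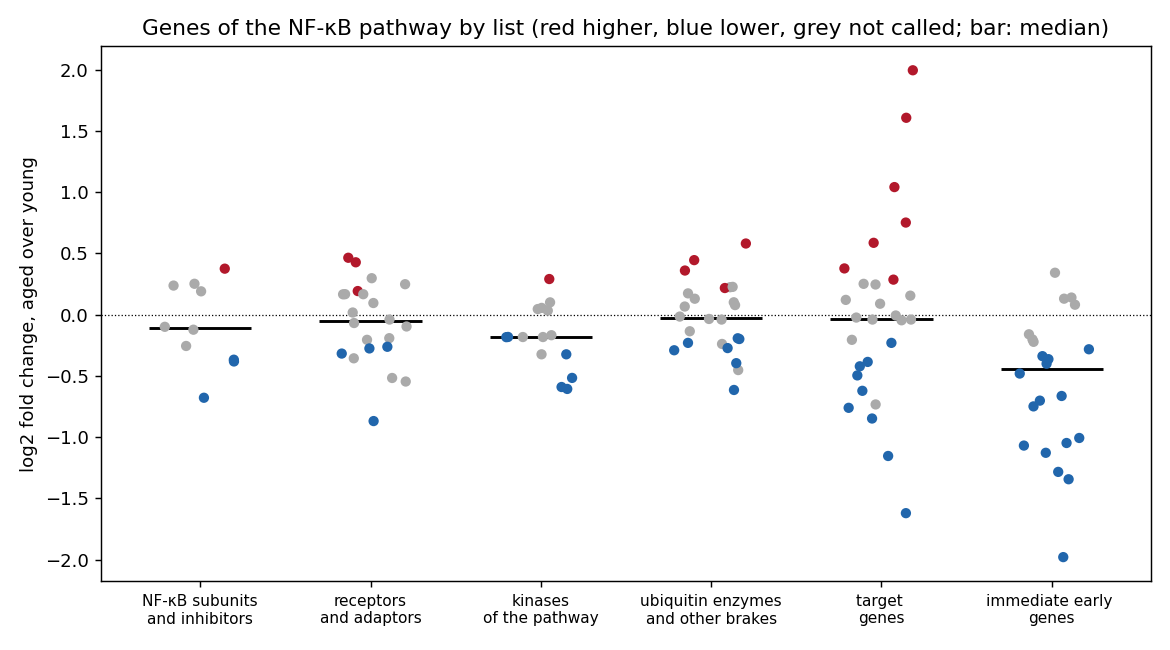
Log2 fold change, aged over young, of the NF-κB genes, of the 4 pathway lists and of the immediate early genes, 1 point per tested gene, with the median as a bar. The pathway lists spread to both sides of 0, and 15 of the immediate early genes were called lower and none was called higher, with their median at -0.44.

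Finally, the genes whose profile over the 12 mice was most like a given NF-κB gene were looked up among 6588 genes with a mean of at least 10 CPM, by the root mean square distance of mean-centred log2 CPM. For Rel these were Atg7 (0.0618), Cnot4 (0.0667) and Zswim6 (0.0742), against a median distance of 0.294. Nfkbiz had Clk1 (0.123), Cebpz (0.141) and Adam8 (0.141), with a median of 0.437 over all candidates. Nfkbia was nearest to Cited2 (0.108), Chst13 (0.135) and Ube2d1 (0.141), median 0.324. The profile of Tnfaip3 was near to those of Fam46a (0.0765) and Foxj3 (0.0784), median 0.247. No NF-κB gene was among the nearest 3 of another in these lookups. The distances describe these 12 mice, which share age groups and library scaling, and no test was made.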

How the data were processed

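Per the labels, 1 library per mouse was made from M-MDSCs of 12 male mice, grouped by age from the sample titles. The authors deposited whole-number counts of fragments per gene from featureCounts 2.0.0 (stranded, paired, exons of the UCSC mm10 genes, mapping quality of at least 60), without normalization. The aligner is not given in the sources used here. The quality filter removes fragments that fit several places, which lowers genes with near-identical copies.

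R 4.3.3 and edgeR 4.0.16 were used on the whole table (filterByExpr, TMM factors, quasi-likelihood test, Benjamini-Hochberg adjustment over 9742 genes), and a gene was called at an adjusted p under 0.05. The biological coefficient of variation was 15.7%. Standard errors came from the fold change and its F statistic, and 95% intervals used 10 residual degrees of freedom and are not adjusted for the number of genes. CPM used TMM-scaled totals, and CPM per kilobase the exon length of the table. In data simulated for aged versus young on 9698 genes, 55.3% of changes of 0.5 (94 genes) and 91.4% of changes of 1 (105 genes) on the log2 scale were recovered. There were 13 false calls. Far fewer genes changed there than the 4425 called in the real data, so the rates describe the simulated setting. p-values measure the spread between mice. No pair of libraries of an age agreed within sampling noise (smallest chi-square per gene 1.72).

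The 10 NF-κB genes and all lists were chosen with earlier results of these data known. Named genes were the 10 themselves, in each pathway and context list the called genes that rose and fell most and the gene of smallest p-value, the 3 nearest profiles of Nfkbia, Nfkbiz, Tnfaip3 and of the called member with the smallest p-value (Rel), listed genes at 0, and checks of the sort. An item that this rule names is not reported here. Alternatives were DESeq2 1.42.0, limma-voom (limma 3.58.1), library totals, every mouse at 10 counts or more, all genes with a count, gene length offsets (lowess span 0.5), thinning, a replicate block, the block with length offsets, and leaving out each mouse. Ly6g and genes of the mitochondrial genome were not analysed here. Marker lists of other cell types (dendritic, B, plasma, T and NK, erythroid, early granulocyte and stem, basophil and mast cells) were also summed.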

Additional observations from a re-analysis of the deposited data

Results flagged for a closer look

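Nfkbia in aged replicate 4 stood far from the other aged mice, at 264.1 CPM against 165.4 CPM in the nearest, a gap that took 0.828 of the whole range of the 6 aged mice and exceeds the 95% critical value of Dixon's test. The test was run on 20 groups (10 genes in 2 ages), and chance alone marks about 1 group in 20. In the same mouse Nfkbiz was also the highest of the aged mice (219.6 CPM), the summed immediate early genes were the highest of the aged mice (5287 CPM) and the summed neutrophil markers the lowest (96590 CPM), while Tnfaip3 was the lowest of all mice (24.6 CPM). The part of these in the high Nfkbia was not tested.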

How the results depend on the processing

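Of 230 fold changes of the 10 genes under 23 alternatives, 220 stayed on their side of the threshold, 8 gained a call and 2 lost it, and no called gene changed sign. Rel, Nfkb1, Nfkbiz and Nfkbib were called in 12 of 12 fits that left out 1 mouse, with log2 fold changes of -0.41 to -0.36, -0.43 to -0.33, -0.73 to -0.55 and 0.32 to 0.42. Without a mouse, the NF-κB genes called higher numbered 1 to 2, and the called genes of the kinase list 4 to 8. Beside the cases in the report, Rela was called with a minimum of 10 counts in every mouse (adjusted p = 0.0425), which made 2 called higher.

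The replicate numbers do not pair the mice, since deviations of mice with the same number correlated at -0.246 to -0.0655 in 4 pairs and 0 of 4 young mice correlated best with their own number. A replicate block left 4 NF-κB genes called, but 4 receptors and adaptors, 7 ubiquitin enzymes and brakes and 4 immediate early genes. Without the block these counts were 7, 11 and 15, in that order. Under the block Ikbkg (0.23, adjusted p = 0.18), Vcam1 (adjusted p = 0.0616) and Fosb (-1.81, adjusted p = 0.163) were not called. With the block and gene length offsets together, 1848 genes were called (893 higher and 955 lower), among them 2 NF-κB genes, 0 of them higher. Rel (adjusted p = 0.0559) and Nfkbib (0.184) were lost, as were Myd88 (0.161), Pdlim2 (0.0823), Cflar (0.0523), Vcam1 (0.0698) and Fosb (0.207). Called there were 3 receptors and adaptors, 3 genes of the kinase list, 3 ubiquitin enzymes and brakes, 9 targets, 4 immediate early genes and 3 cell cycle genes. In that fit Nfkbia (-0.04), Tnfaip3 (0.10) and Cnot4 (0.0396) turned their sign. Length offsets alone also turned Tnfaip3 (0.07) and left 3 cell cycle genes called of 6. In the fits with the block, the age difference rested on the 4 pairs of mice that share a number, since the others had no partner. Why these calls moved was not tested.

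Library totals without TMM factors gave 37.8% of called genes higher against 49.4% with them, and moved the median of all genes to -0.081. Without young replicates 5 and 6, 1392 genes were called higher, against 2185 with all mice, and 3 cell cycle genes were called. With aged replicate 1 left out as well, 1425 genes were higher, and 4 genes of the kinase list, 10 targets and 3 cell cycle genes were called. Both kept 4 called NF-κB genes. Relb, with as few as 37 counts in a young mouse, went from 0.24 to 0.09 (adjusted p = 0.609) when all libraries were thinned to the smallest total.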

Other observations

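The 20 cell cycle genes, given as context, were 6 lower and 0 higher in aged mice, with 14 not called (30.0% called, against 45.4% of all genes tested) and a median log2 fold change of -0.19. Mki67, a marker of dividing cells, fell the most and had the smallest p-value, at 63.4 to 173.2 CPM in aged and 229.0 to 673.3 CPM in young mice (-2.01 on the log2 scale, adjusted p = 0.000134, edgeR's quasi-likelihood test). Of the gated surface markers, Itgam, which encodes CD11b, lay at 2657 to 3476 CPM in aged and 3264 to 3538 CPM in young mice, and Ly6c2 at 604.6 to 798.2 and 366.2 to 594.3 CPM. With gene length offsets the log2 fold change of Ly6c2 went from 0.54 to 0.12 (adjusted p = 0.30) and that of Itgam from -0.22 to -0.05 (adjusted p = 0.562). Ly6c1 stayed at or below 2.10 CPM in every mouse. The mapping quality filter can remove fragments that fit both Ly6c1 and the similar Ly6c2, so this need not be its full level.

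Marker lists of other cell types were low. Summed levels reached at most 21.9 CPM for dendritic cells, 15.6 for B cells, 38.8 for T and NK cells, 8.24 for erythroid cells and 1.83 for basophils and mast cells, and Cd8a had 0 counts throughout. Hba-a1 and Hba-a2 also had 0, but they are near-identical copies that the mapping quality filter can remove, so this does not bear on erythroid cells. Plasma cell markers summed to 133.5 to 239.0 CPM in aged and 108.9 to 159.9 CPM in young mice, and early granulocyte and stem cell genes to 62.7 to 82.9 and 55.5 to 78.3 CPM. Xbp1 carried most of the plasma cell sum, with means of 139.8 CPM in aged and 112.5 CPM in young mice. Of the 4 early granulocyte and stem cell genes tested, 3 (Elane, Mpo and Prtn3) were called higher in aged mice, while Kit carried most of the sum. The highest sums of the B cell, T and NK cell, erythroid and plasma cell markers were all in aged replicate 1.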
